A study of Drosophila melanogaster with 12 samples.

Results

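Chemical signalling between fly neurons was followed here through 10 genes for the synthesis, vesicle loading, uptake and reception of GABA and glutamate: Gad1, VGAT, Gat, Rdl, Lcch3, VGlut, GluClalpha, Nmdar1, Nmdar2 and mGluR. They were taken by symbol from a table of 13515 genes measured in heads of adult Drosophila melanogaster, and all 10 were present. The genes were named for their function, not for how they behaved. Tau flies had the genotype Elav-Gal4/+;UAS-tauR406W/+, in which the pan-neuronal driver Elav-Gal4 makes neurons produce human tau with a substitution known from inherited frontotemporal dementia. Control flies had the genotype Elav-Gal4/+, so both groups carried 1 copy of the driver. Flies of both groups were at day 10 of adulthood. There were 6 tau and 6 control libraries, each from 18 heads of males and females pooled together, and the submitters describe the pools as independent. The control flies carried no other UAS transgene according to the genotype label, so the effect of driving any transgene at all was not controlled for.

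In insects GABA is the main inhibitory transmitter of the brain. It is made from glutamate by the decarboxylase Gad1, packed into vesicles by VGAT, sensed by chloride channels that contain Rdl, and cleared by the plasma membrane transporter Gat, which in flies is found on astrocyte-like glia. Glutamate drives muscle at the fly neuromuscular junction, while in the brain it can excite or inhibit, because besides NMDA-type and metabotropic receptors flies have a chloride channel opened by glutamate, GluClalpha. Acetylcholine, not glutamate, is the main excitatory transmitter of the insect brain.

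The values are gene counts that the authors normalised with DESeq2, and they are printed here as normalised values. They summed to between 24.7 and 26.7 M per tau library and between 25.9 and 30.2 M per control library. These totals are not read depths, and whole read counts were not recovered. The smallest value above 0 lay between 0.325 and 1.256 depending on the library, whereas the lowest value of any of the 10 genes was 404, so all 10 passed the filter of a mean of at least 10 and none was near the limit of detection. Tau B, control E and control F listed 195, 433 and 484 genes at 0, against at least 1492 in the other libraries. Over 1973 genes whose median did not exceed 2, the values summed to 47385 in tau B, 22677 in control E and 10626 in control F, against at most 4904 elsewhere. The comparisons of tau with control, for genes and for ratios, were therefore also computed without these libraries. Levels per kb, deviations and correlations used all 12 libraries. The tissue label was matched by the photoreceptor markers: ninaE, the main rhodopsin, averaged 869061 ± 91844 in tau heads and 1001930 ± 76071 in control heads (SD, n = 6 each). In pooled heads, fewer cells of a type and less RNA per cell cannot be told apart.

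Positions were read from Ensembl gene models of BDGP6, whose coordinates are those of dm6, the build in the submitters' processing notes. Gad1 (FBgn0004516) lies on 3L from 4074077 to 4088744, VGAT (FBgn0033911) on 2R from 14198478 to 14201249 and Gat (FBgn0039915) on 4 from 629691 to 635350. Rdl (FBgn0004244) lies on 3L from 9145838 to 9182149 and Lcch3 (FBgn0010240) on X from 15925105 to 15928529. VGlut (FBgn0031424) lies on 2L from 2400295 to 2410662, GluClalpha (FBgn0024963) on 3R from 19730715 to 19775231 and Nmdar1 (FBgn0010399) on 3R from 5508842 to 5523328. Nmdar2 (FBgn0053513) lies on X from 1483625 to 1507809 and mGluR (FBgn0019985) on 4 from 936819 to 949441. VGAT, Lcch3 and Nmdar1 have 1 annotated transcript each, while GluClalpha has 11, Nmdar2 7 and Rdl 6, so that their values sum over isoforms. Exons of Lcch3 overlap those of Ranbp16, a gene on the other strand, over 456 bases. The libraries were stranded, but the strand setting of the counting is not given in the sources used here, and reads in that stretch are uncertain. Ranbp16 had 846 ± 107 in tau heads and 788 ± 52.5 in control heads (SD, n = 6 each), a log2 fold change of 0.09 ± 0.10 (SE, adjusted p = 0.702). The overlap of VGlut with CG18641 was 39 bases, and CG18641 averaged 16.6 in tau heads and 20.8 in control heads.

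To compare genes with each other, values were divided by the total length of annotated exons in kb, a scale that understates genes whose long exons are used in few transcripts. On this scale the vesicular glutamate transporter, the GABA-making enzyme and the main GABA receptor subunit stood at the top. VGlut reached 1330 ± 181 per kb in tau heads and 1444 ± 120 per kb in control heads (SD, n = 6 each, as for all levels per kb). Gad1 reached 1450 ± 228 and Rdl 1151 ± 122 per kb in tau heads, against 1348 ± 237 for Gad1 and 1196 ± 312 for Rdl in control heads. GluClalpha and Gat followed, at 773 ± 84.4 and 740 ± 128 per kb in tau heads, and at 769 ± 120 and 704 ± 142 per kb in control heads. A gap without overlap separated Gat from the next gene, VGAT, in both groups. VGAT stood at 297 ± 28.9 per kb in tau heads and 339 ± 35.9 per kb in control heads, although it packs the transmitter that Gad1 makes. Lcch3 and Nmdar2 followed at 265 ± 34.5 and 262 ± 21.9 per kb in tau heads, against 306 ± 29.5 and 243 ± 53.8 per kb in control heads. The lowest levels were those of Nmdar1 and mGluR, at 177 ± 26.4 and 195 ± 21.5 per kb in tau heads and at 183 ± 20.04 and 183 ± 19.3 per kb in control heads. The ranges of the libraries overlapped in both groups between VGlut and Gad1, Gad1 and Rdl, GluClalpha and Gat, VGAT and Lcch3, Lcch3 and Nmdar2, and Nmdar1 and mGluR. Between Rdl and GluClalpha, and between Nmdar2 and Nmdar1, they overlapped in the controls but not in tau, and in both cases the first gene was the higher in 12 of 12 libraries. Within these ties, Gad1 stood above VGlut and mGluR above Nmdar1 in the tau means, and the other way round in the control means.

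**Figure D1:**
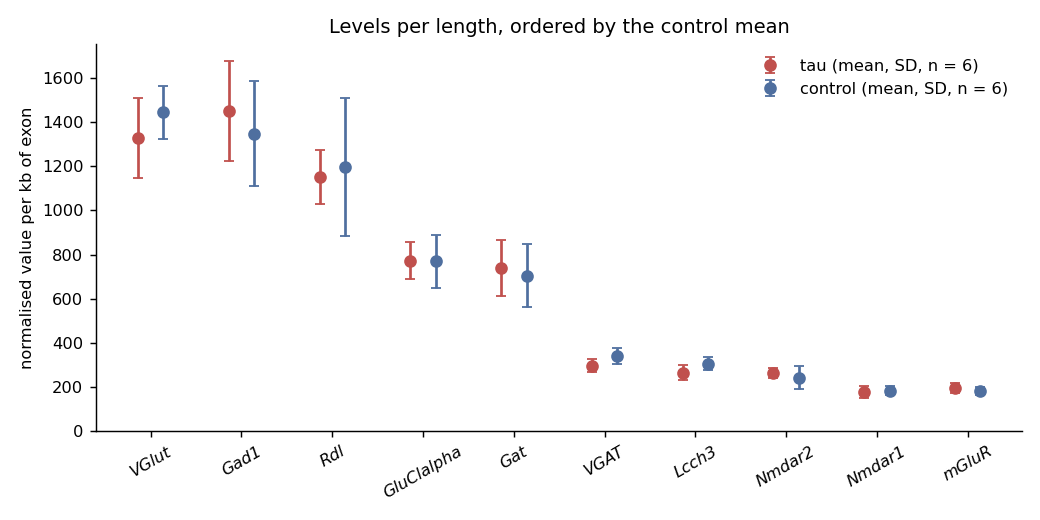
Mean normalised value per kb of exon (y axis, linear) of the 10 genes in tau and control heads, with bars of 1 SD over 6 libraries per group. VGlut, Gad1 and Rdl lie highest in both groups (1151 to 1450 per kb in tau heads), and Nmdar1 and mGluR lowest (177 and 195 per kb in tau heads).

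None of the 10 genes was called as changed by tau. The comparison was fitted over all genes with limma on log2(value + 1), and a gene was called at a Benjamini-Hochberg adjusted p under 0.05. Of 10845 genes tested, 5.23% were called, 2.1% higher and 3.13% lower in tau heads. Of the 10 genes, 0 were called and 0 had an unadjusted p under 0.05, against 18.2% of all tested genes with such a p. The smallest adjusted p among them was 0.34. None had values that were free of overlap between the groups, which 3.37% of all tested genes had. The log2 fold changes of tau over control ran from −0.22 to 0.14, with 5 above 0 and 5 below, and a median of −0.0013, against a median of 0.0079 over all tested genes. The 95% intervals limit how large a change could have been missed: across the 10 genes they reached at most from 0.729-fold to 1.33-fold, so every interval excluded a halving or a doubling of the level. With all libraries scaled to equal totals, the median of all genes shifted to 0.11 and that of the 10 genes to 0.10, and none of them was called. Over all genes 525 were then called higher and 261 lower, against 228 higher and 339 lower as deposited.

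Of the genes that make, load and clear GABA, none was called. Gad1, the enzyme that turns glutamate into GABA, ran from 4031 to 6220 in tau heads with a median of 5424, and from 3900 to 6027 in control heads with a median of 5036. The groups covered nearly the same range, and the log2 fold change was 0.11 ± 0.13 (SE, adjusted p = 0.746), with a 95% interval from 0.891-fold to 1.303-fold. VGAT, the transporter that fills vesicles with GABA, ran from 683 to 890 in tau heads with a median of 818, and from 832 to 1104 in control heads with a median of 890. In 4 of 6 tau libraries it lay below the lowest control, but its log2 fold change of −0.19 ± 0.10 did not pass (adjusted p = 0.34, interval from 0.759-fold to 1.01-fold). Its highest value was that of control B, well above the 905 of the next control. Gat, which takes GABA back up from the extracellular space, ran from 1584 to 2655 in tau heads with a median of 2162, and from 1600 to 2729 in control heads with a median of 1991. Its log2 fold change was 0.08 ± 0.14 (adjusted p = 0.846, interval from 0.859-fold to 1.29-fold), and it was −0.07 without tau B, control E and control F. Tau D, at 1584, was just below the lowest control, and the other 5 tau libraries lay inside the control range.

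The receptor subunits for GABA differed in their spread. Rdl, the channel subunit named for resistance to the insecticide dieldrin, ran from 8767 to 11297 in tau heads with a median of 10864, and from 7177 to 13570 in control heads with a median of 11587. Every tau library lay inside the range of the controls. The SD was 10.6% of the mean in tau heads and 26.1% in control heads, with control C and control E low at 7177 and 7518. This difference in spread was not tested. The log2 fold change of Rdl was −0.02 ± 0.16 (adjusted p = 0.977, interval from 0.786-fold to 1.242-fold). Lcch3, a related chloride channel subunit, ran from 404 to 600 in tau heads with a median of 499.6, and from 493 to 656 in control heads with a median of 589. In 3 of 6 tau libraries it lay below the lowest control, and tau B was the lowest. Its log2 fold change of −0.22 ± 0.11 was the most negative of the 10, and did not pass (adjusted p = 0.348, interval from 0.729-fold to 1.02-fold).

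VGlut, the vesicular transporter that defines glutamatergic neurons, ran from 6058 to 8928 in tau heads with a median of 7740, and from 7232 to 9089 in control heads with a median of 8127. Tau C and tau D, at 6807 and 6058, lay below the lowest control, and the other 4 tau libraries lay inside the control range. The log2 fold change was −0.13 ± 0.10 (adjusted p = 0.564, interval from 0.794-fold to 1.06-fold).

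None of the 4 glutamate receptor genes was called. GluClalpha, the glutamate-gated chloride channel and a target of ivermectin, ran from 4247 to 5616 in tau heads with a median of 5419, and from 4096 to 5985 in control heads with a median of 5167. Its log2 fold change was 0.02 ± 0.11 (adjusted p = 0.971, interval from 0.86-fold to 1.19-fold). All 6 tau libraries lay inside the control range. Nmdar1 is the obligate subunit of the NMDA receptor, which is needed in flies for memory. It ran from 608 to 871 in tau heads with a median of 702, and from 661 to 863 in control heads with a median of 794. Tau E and tau F, at 871 and 867, were the only tau libraries above the highest control, while tau D was below the lowest. Its log2 fold change was −0.06 ± 0.12 (adjusted p = 0.851, interval from 0.809-fold to 1.14-fold).

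The partner subunit Nmdar2 ran from 1884 to 2390 in tau heads with a median of 2097, and from 1365 to 2548 in control heads with a median of 2069. Like Rdl it was more even in the tau libraries, with an SD of 8.35% of the mean there and 22.1% in the controls, and its low values were again those of control C and control E. Its log2 fold change of 0.14 ± 0.13 was the most positive of the 10 (adjusted p = 0.661, interval from 0.906-fold to 1.33-fold). mGluR, the metabotropic glutamate receptor, which acts through G proteins, ran from 1054 to 1418 in tau heads with a median of 1205, and from 1002 to 1309 in control heads with a median of 1136. It lay above the control median in 5 of 6 tau libraries, with a log2 fold change of 0.09 ± 0.10 (adjusted p = 0.713, interval from 0.921-fold to 1.23-fold).

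**Figure D2:**
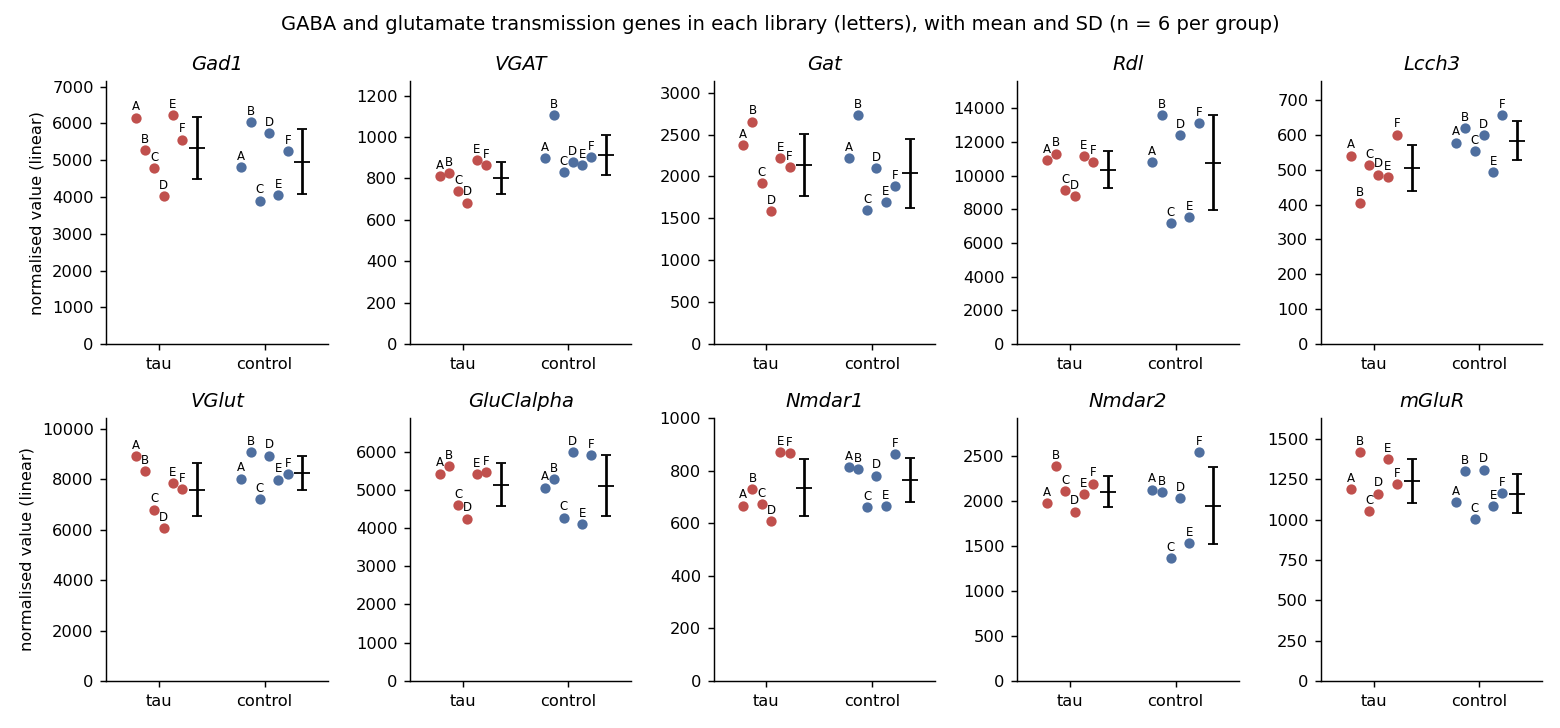
Normalised value (y axis, linear from 0) of each of the 10 genes in every library, tau left and control right, letters naming the libraries and black bars giving the mean and 1 SD (n = 6 per group). The groups overlap for all 10 genes, and control C and control E are low for Gad1, Rdl, GluClalpha, Nmdar1 and Nmdar2.

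Much of the spread was shared between genes. Each log2 value was set against the mean of its genotype, so that the difference between tau and control played no part. In tau D, control C and control E, 0 of the 10 genes lay above the mean of their genotype, with mean deviations of −0.24, −0.27 and −0.23. In control B all 10 lay above it, with a mean deviation of 0.21. The 12 pan-neuronal markers, which include elav, nSyb and Syt1, moved with them in these libraries. Their mean deviations were −0.26 in tau D, −0.45 in control C, −0.27 in control E and 0.29 in control B. In tau B the signs differed, with mean deviations of 0.088 for the 10 genes and −0.029 for the markers. Among the 45 pairs of the 10 genes, the Pearson correlation of these deviations over 12 libraries had a median of 0.689, and 33 pairs were above 0.5. Among all pairs of the 8415 genes with a mean of at least 100, the median was −0.002 and 12.2% were above 0.5. These are descriptions, since the genes of a pair share libraries and normalisation. The highest was that of Rdl with GluClalpha, at 0.908, and the only negative one that of Lcch3 with mGluR, at −0.091. Lcch3 had the lowest correlation with the mean of the other 9 genes, at 0.316, against 0.721 to 0.939 for the rest. In tau B, Lcch3 lay at −0.31, while the other 9 genes lay above the mean of their genotype. How far this library sets the low value was not tested. With the mean of the pan-neuronal markers the correlation of Lcch3 was 0.56, against 0.648 to 0.958 for the rest.

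**Figure D3:**
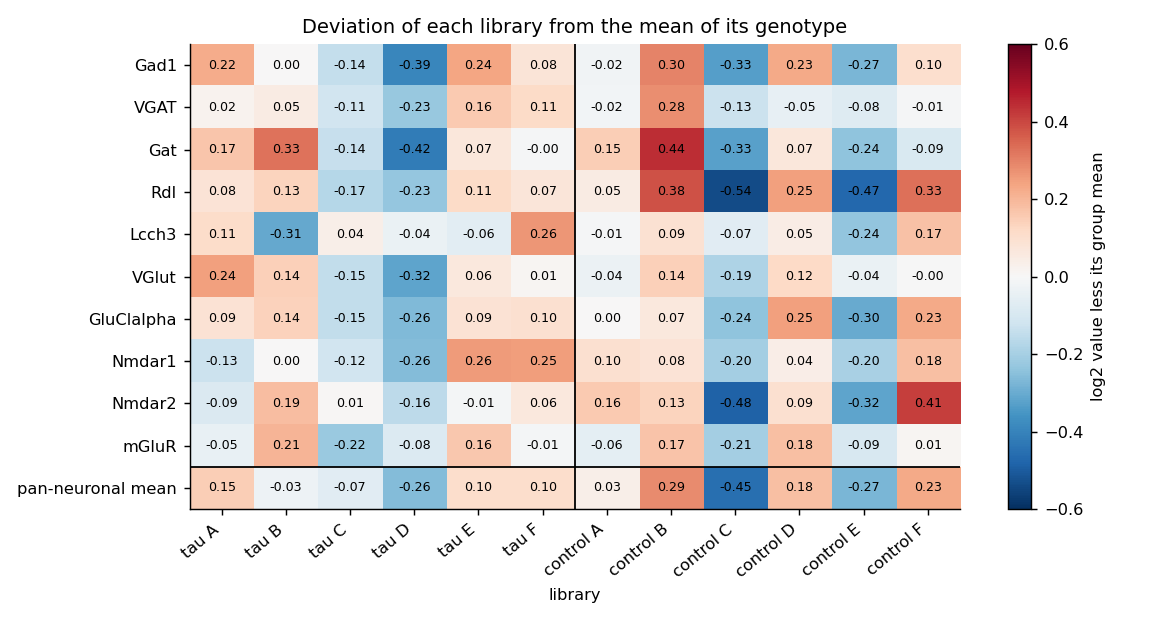
Deviation of each log2 value from the mean of its genotype (colour and number), for the 10 genes in rows and the libraries in columns, with the mean of the 12 pan-neuronal markers in the bottom row. Columns tau D, control C and control E are below 0 for all 10 genes, and column control B is above 0 for all 10.

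Read relative to the pan-neuronal markers, some genes were far tighter. The SD within a genotype of the log2 value fell to 0.091 for Gad1, against 0.249 without this reference, and to 0.107 for Rdl, against 0.309. For GluClalpha it was 0.117 against 0.200, and for Nmdar2 0.147 against 0.251. It did not shrink for VGAT (0.168 against 0.144), Lcch3 (0.199 against 0.168) or mGluR (0.18 against 0.156). None of the 10 was called on this scale, on which 75 of all 10845 genes tested were called, against 567 as deposited. Their log2 differences from control ran from −0.23 for Lcch3 and −0.20 for VGAT to 0.09 for Gad1 and 0.12 for Nmdar2. None of the 12 pan-neuronal markers was called either, and their log2 fold changes had a median of 0.05. Their summed level ran from 200007 to 262375 in tau heads and from 181211 to 298377 in control heads. Like Rdl and Nmdar2, each of these 12 markers had a smaller SD in tau heads than in control heads. For elav it was 918 against 2134. The smaller spread in tau heads was thus not particular to those genes, and it was not tested.

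Among the other 8405 genes with a mean of at least 100, the 5 whose deviations were most like the mean of the 10 genes over the 12 libraries were Nckx30C, a sodium, calcium and potassium exchanger (r = 0.973), Ih, a channel opened by hyperpolarisation (0.970), the adhesion protein gene CadN (0.970), the RNA editing enzyme gene Adar (0.968) and Gfrl (0.967). None of the 5 was called, and their log2 fold changes ran from −0.11 for Ih to 0.14 for CadN.

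Ratios of 2 genes within a library do not depend on how libraries are scaled. For 6 ratios the genotypes were compared by an exact permutation test, two-sided, which enumerates every way to assign the 12 libraries to 6 and 6, with p-values adjusted over the 6. The smallest p this design can give is 0.00216. No ratio passed. The ratio of Gad1 to VGAT, enzyme against vesicular transporter, came closest: it ran from 5.90 to 7.60 in tau heads with a median of 6.46, and from 4.69 to 6.53 in control heads with a median of 5.41. The tau libraries were mostly at the upper end, and tau A and tau E lay above every control. The log2 difference was 0.30 ± 0.09 (SE, exact permutation p = 0.013, adjusted 0.0779), and without control D it was 0.35 (exact permutation test, adjusted p = 0.026). It did not pass without any other single library (adjusted p up to 0.169, without tau A) or without tau B, control E and control F (adjusted p = 0.286, exact permutation tests).

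The ratio of Nmdar1 to Nmdar2 ran from 0.306 to 0.419 in tau heads with a median of 0.33, and from 0.339 to 0.484 in control heads with a median of 0.384. In 4 of 6 tau libraries it was below every control, with a log2 difference of −0.20 ± 0.10 (exact permutation p = 0.0887, adjusted 0.266). VGlut over VGAT, the pair of vesicular transporters, averaged 9.47 ± 0.895 in tau heads and 9.06 ± 0.650 in control heads (SD, n = 6 each; difference 0.06 ± 0.07, exact permutation adjusted p = 0.588). The ranges of this ratio overlapped, with tau A above every control, at 11.01. Rdl over Lcch3 averaged 20.9 ± 4.04 in tau heads and 18.2 ± 3.45 in control heads (difference 0.20 ± 0.16, exact permutation adjusted p = 0.511). Gat over Gad1, uptake against synthesis of GABA, averaged 0.403 ± 0.0514 in tau heads and 0.411 ± 0.0425 in control heads (difference −0.03 ± 0.09, exact permutation adjusted p = 0.751).

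GluClalpha over Rdl, the glutamate-gated against the GABA-gated chloride channel, averaged 0.495 ± 0.00842 in tau heads and 0.489 ± 0.0725 in control heads (difference 0.03 ± 0.09, exact permutation adjusted p = 0.751). The spreads differed: the 6 tau libraries lay between 0.484 and 0.504, and the controls between 0.389 in control B and 0.595 in control C. This difference in spread was seen in the data and was not tested.

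**Figure D4:**
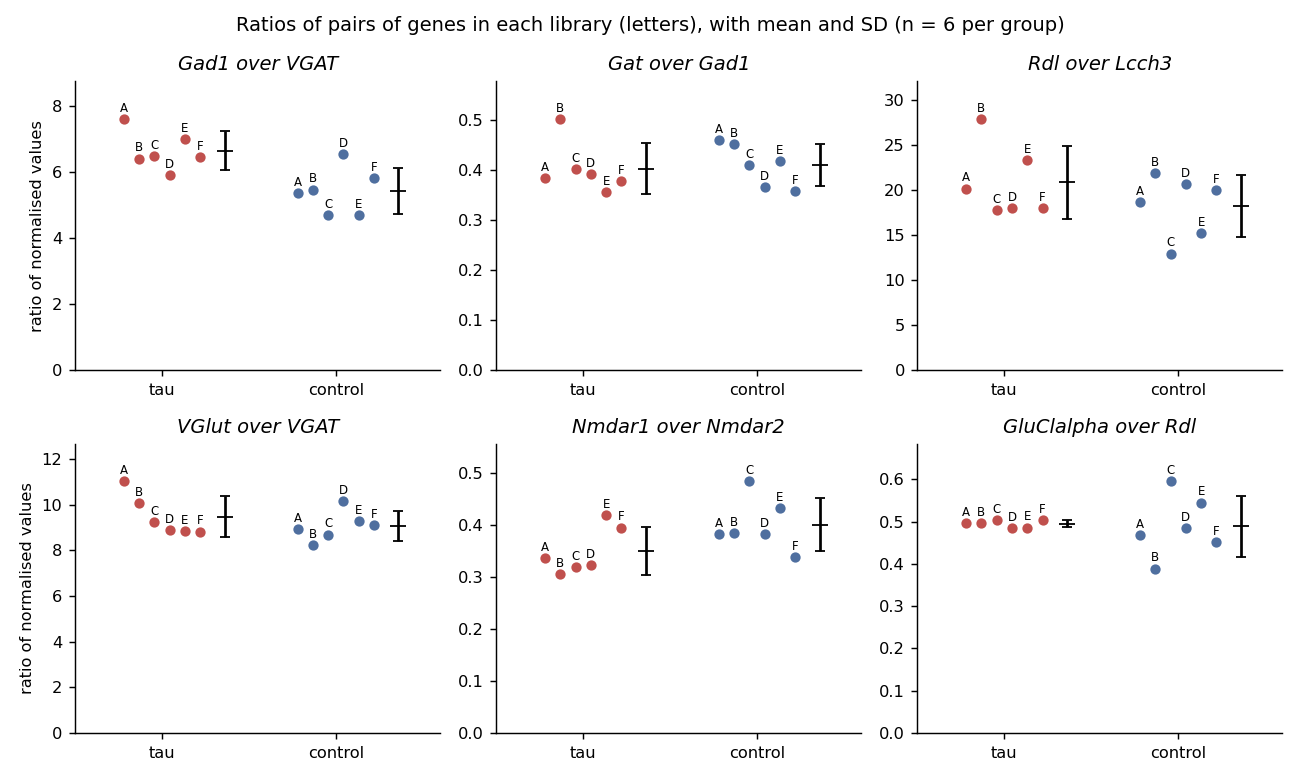
Ratio of the normalised values of 2 genes (y axis, linear from 0) in every library, tau left and control right, letters naming the libraries and black bars giving the mean and 1 SD (n = 6 per group). The Gad1 to VGAT ratio is highest in tau A and tau E, and the GluClalpha to Rdl ratio stays between 0.484 and 0.504 in the tau libraries.

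Other genes of these pathways were read from the same fit. Of 36 reported here, 35 were tested, and 1 of these was called, Eaat1, with a median log2 fold change of −0.03 over the 35. Of all tested genes, 5.23% were called and 3.37% had values free of overlap between the groups. The 1 call among 35 is therefore no more than the share over all genes. Eaat1, the glial transporter that clears glutamate from the synapse, fell 1.44-fold. It ran from 6592 to 8390 in tau heads with a median of 7441, and from 9285 to 14547 in control heads with a median of 10110. Every tau library was below every control, and control C was the highest. The log2 fold change was −0.53 ± 0.11 (SE, adjusted p = 0.00893), and Eaat1 stayed called without any single library (adjusted p from 0.00651 to 0.0277). It was not called with the yolk proteins as a covariate (−0.39, adjusted p = 0.175) or relative to the pan-neuronal markers (−0.54, adjusted p = 0.238), fits in which 146 and 75 of all genes were called. The summed haemocyte markers were also lower in tau heads, at 18697 to 21583 against 24916 to 39420 in control heads. Among the controls, their mean log2 value and Eaat1 were both highest in control C (12.021 and 14547), then in control A (11.607 and 11720). Among the tau libraries, Eaat1 was highest in tau E, where that mean was lowest (10.605), and lowest in tau D (10.952). The mean log2 value of the yolk proteins was also highest in control C (19.313) and lowest in control E (17.191), the control with the least Eaat1. In tau E it was the lowest of the tau libraries (16.447). Whether these contents bear on Eaat1 was not tested beyond the covariate. Of 7 glial markers 0 were called. Its relative Eaat2 averaged 5678 ± 427 in tau heads and 5690 ± 453 in control heads, a log2 fold change of −0.0025 ± 0.08 (adjusted p = 0.994).

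The next by p-value among these genes was Gabat, the transaminase that breaks GABA down, which averaged 2957 ± 211 in tau heads and 3633 ± 437 in control heads (SD, n = 6 each). Its log2 fold change was −0.29 ± 0.09 and it was not called (adjusted p = 0.0731). Control C, at 3033, was the only control inside the tau range, and without that library Gabat was called (−0.34, adjusted p = 0.0242). It was also called with array weights (−0.34, adjusted p = 0.00929), and with equal totals it was at −0.19 (adjusted p = 0.291). Of 5 further GABA receptor genes, which include the metabotropic GABA-B-R1, GABA-B-R2 and GABA-B-R3, 0 were called, with log2 fold changes from −0.04 to 0.13. Of 12 genes for AMPA and kainate type receptors and their partner Neto, 0 were called. KaiR1D and GluRIIA had log2 fold changes of −0.41 ± 0.16 and −0.52 ± 0.24 (adjusted p = 0.165 and 0.26), and without control E KaiR1D was called (−0.53, adjusted p = 0.0447). Of 6 other ligand-gated chloride channels that were tested, among them the histamine receptors HisCl1 and ort, 0 were called.

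**Figure D5:**
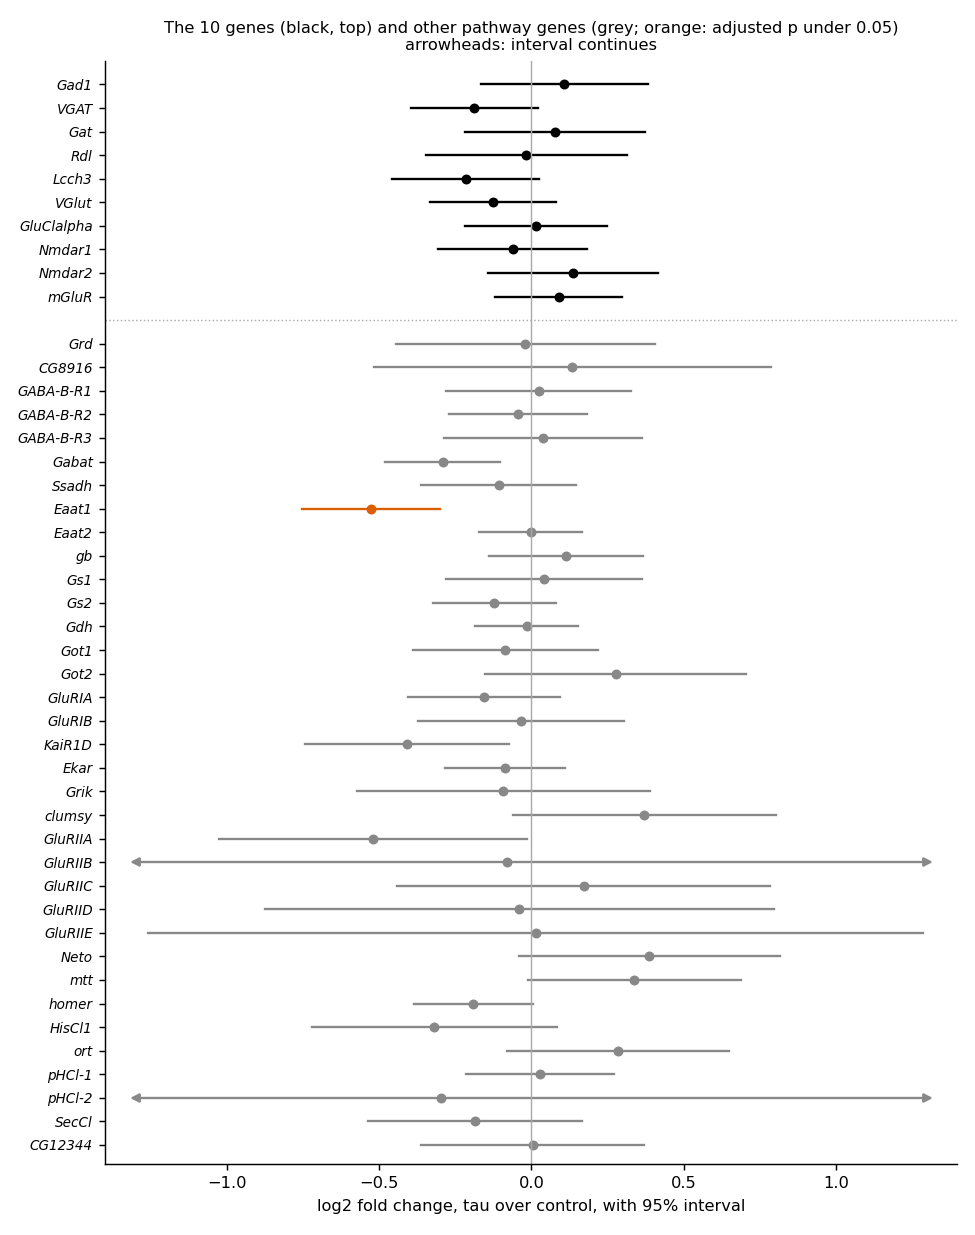
Log2 fold change of tau over control (x axis) with its 95% interval for the 10 genes (black, top) and 35 other genes of the pathways (grey), with arrowheads where an interval runs past the axis. Orange marks Eaat1, called at −0.53, and the intervals of all 10 genes at the top cross 0.

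Markers of other cells of the head moved with genotype for some cell types. Of 7 glial markers, 0 were called, and their summed level ran from 25469 to 31436 in tau heads and from 27186 to 28809 in control heads. Their log2 fold changes ran from −0.25 for wrapper to 0.34 for Tret1-1, with a median of −0.04. Of the 7, 2 had an unadjusted limma p under 0.05, Tret1-1 higher and nrv2 lower (−0.20) in tau heads. Of all tested genes, 18.2% had such a p. Repo, the transcription factor that defines glia, had a log2 fold change of 0.03 ± 0.11. Of 4 cholinergic and 6 monoaminergic markers tested, 0 were called, with medians of −0.06 and 0.04. Of 8 haemocyte markers, 5 fell and 0 rose, with a median log2 fold change of −0.89 and no marker at 0. Of 6 fat body markers tested, 2 fell. The summed level of all 7 listed, including the untested Fbp2, ran from 262086 to 480824 in tau heads and from 409201 to 714669 in control heads. Its largest part was apolpp, which was not called (limma adjusted p = 0.231). Fbp1 and Fbp2 were at 0 in some libraries. The 3 yolk protein genes, made in female fat body, had a summed level of 269709 to 1077433 in tau heads and 456018 to 1961416 in control heads. Yp1, Yp2 and Yp3 had log2 fold changes of −0.91 ± 0.42, −1.22 ± 0.37 and −0.89 ± 0.36, each with an unadjusted p under 0.05, and 0 of them were called (adjusted p = 0.259, 0.0706 and 0.185). Of 10 photoreceptor markers 1 fell, Arr2, and of 6 muscle markers 1 rose, Act57B. The part of these cell types in the values of Eaat1 was not tested beyond the covariate.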

How the data were processed

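RNA of pooled heads was measured in 6 tau and 6 control libraries. Per the labels' protocols, stranded libraries were made after depletion of ribosomal RNA. Per the submitters' processing notes, Trimmomatic 0.36, FastQC, Salmon 0.13.1 and DESeq2 1.24 were used with build dm6. Each deposited value is a signal: the gene's count after division by normalisation factors by the authors, and per the file headers 2 sequencing lanes were joined per library. The sources used here do not name the transcript annotation or the step to genes. The value of 1 read differed between genes, so no count model was used and the read depth is unknown.

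Of 13515 identifiers, 13433 matched a symbol. Genes with a mean of at least 10 were analysed as log2(value + 1), which understates changes of low genes, in limma 3.58.1 (R 4.3.3; linear models without covariates, moderated with a mean-variance trend), two-sided, with Benjamini-Hochberg adjustment over all 10845 genes. SE is moderated, and intervals are 95%. The fit was tested on simulated data in which genes varied independently, so the effect of movement shared between genes was not examined. Ratios were compared by exact permutation in Python 3.11.15. Exon lengths came from Ensembl release 115. The named genes are the 10 genes, the called genes and the 3 of smallest p among the pathway lists, and the 5 most alike. GluRIIA, Eaat2, repo, wrapper, Tret1-1, nrv2, Arr2 and Act57B were named after their values were seen. Genes and lists were chosen with earlier results of these data known. Results of 1 listed pathway gene are not reported here. The marker Trh was matched to no single identifier.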

Additional observations from a re-analysis of the deposited data

Results flagged for a closer look

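Each group of 6 libraries was examined for a single value far from the others, on the log2 scale, for the 10 genes and the 6 ratios. Of 32 groups, 2 had a gap to the nearest library whose share of the whole range was above Dixon's 95% critical value, and chance flags about 5% of such groups. For VGAT in the control heads, control B stood above the other 5, with a gap of 0.706 of the range (1104 against 832 to 905). For the ratio of Gat to Gad1 in tau heads, tau B stood above the other 5, with a gap of 0.651 of the range (0.503 against 0.356 to 0.402). Tau B is among the libraries with reads in genes that are silent elsewhere, and whether that bears on the ratio was not tested.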

How the results depend on the processing

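None of the 10 genes was called under any of 24 alternatives (240 values, smallest adjusted p = 0.188). Of these values, 19 had the opposite sign, all of them of Gat, Rdl, GluClalpha or Nmdar1, none of which was called. Gat was at −0.0193 with array weights and −0.0723 without tau B, control E and control F. GluClalpha was at −0.0006 relative to the pan-neuronal markers, −0.0965 with array weights and −0.0309 without those 3 libraries, and from −0.0452 to 0.0678 with a library left out. Rdl was at 0.0139 with the yolk protein covariate, 0.0874 with equal totals, and from −0.13 to 0.0586 with a library left out. Nmdar1 was at 0.0436 with equal totals. The differences of ratios with a library left out ran from 0.26 to 0.35 for Gad1 over VGAT, −0.0965 to 0.0031 for Gat over Gad1, −0.0305 to 0.0919 for GluClalpha over Rdl, 0.0175 (without tau A) to 0.0958 for VGlut over VGAT, 0.1038 (without control C) to 0.2556 for Rdl over Lcch3 and −0.2519 to −0.1418 for Nmdar1 over Nmdar2. Over all genes, 567 were called (228 higher, 339 lower), 369 without the variance trend, 876 with array weights, 146 with the yolk protein covariate, 75 relative to the pan-neuronal markers, 281 with tau B, control E and control F left out, and 375 (without control A) to 677 (without control B) with a library left out. With equal totals 786 were called, 525 higher and 261 lower. The causes were not tested.

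Same-letter libraries did not pair: correlations of their deviations ran from −0.226 to 0.137. With the letter as a replicate block 699 genes and 0 of the 10 were called, and the calls of Eaat1, Gabat and KaiR1D did not change. For the 6 ratios, swaps within letters allow far fewer assignments, so the smallest possible p is larger. No single ratio could then pass alone after adjustment. That none was called under the block (Gad1 over VGAT, exact permutation adjusted p = 0.375) therefore decides nothing about the ratios. Calls of marker genes were not examined under the block.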
